A study of Mus musculus with 4 samples.

Results

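The genes described here are 10 markers of the endothelial cell, the cell that lines blood vessels: Pecam1, Cdh5, Tek, Tie1, Kdr, Flt1, Emcn, Ramp2, Egfl7 and Esam. They were taken by symbol from a table of 55487 mouse genes, every symbol matched a single Ensembl ID, and all 10 passed the filter on low counts that kept 17120 genes for testing. They were read in bulk RNA-seq of skeletal stem cells from WT mice, with 2 libraries after ovariectomy (labelled Ovx-SSC) and 2 after the sham procedure (Sham-SSC). Removing the ovaries lowers oestrogen and is widely used in mice to model the bone loss that follows menopause. All 4 libraries carry the time 8w, which the labels do not tie to age or to time since surgery, and the titles of all 4 end in the word control. Cells were freed from the metaphysis of long bones with collagenase, sorted after staining for the blood antigens CD45 and Ter119, for Tie2 and CD51, and for CD90, CD105, CD200 and 6C3. Nothing in the labels says if the libraries are separate animals or pools, so p-values measure the spread between these libraries, which may be technical.

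Endothelial cells hold together through adhesion proteins at their junctions, read vascular growth factors through a small set of tyrosine kinase receptors, and respond to peptides such as adrenomedullin through G protein-coupled receptors. In the metaphysis, capillaries rich in CD31 (the product of Pecam1) and endomucin (Emcn) run beside bone-forming cells. The marker set also meets the sort directly: Tek encodes Tie2, which the usual sort of these stem cells selects against, although the labels name the stain and not the gate. Several of these genes are not limited to endothelium, since Pecam1 is also made by platelets and leukocytes and Tek, Emcn and Esam by blood stem cells.

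The libraries held between 18291436 and 23721078 counts, of which the 10 genes took 1944 and 2122 in ovariectomy 1 and 2 and 458 and 1376 in sham 1 and 2. A single count was worth between 0.0423 and 0.0519 CPM (counts scaled to library size, with TMM factors between libraries). Of the sort antigens, Cd200 was called lower, at 172 and 155 CPM after ovariectomy, against 237 and 305 CPM in sham (edgeR adjusted p = 0.0462, or 0.0531 with library totals). Itgav (CD51) lay between 67.3 and 72.0 CPM in the 4 libraries, Ptprc (CD45) between 3.55 and 9.55 CPM, and Thy1 (CD90) had between 3 and 5 counts. Enpep (6C3) had 104 and 70 counts after ovariectomy, against 34 and 43 in sham (edgeR adjusted p = 0.22). Among all genes tested, edgeR called 510 higher and 206 lower after ovariectomy (adjusted p under 0.05), so 71.2% of the calls were increases, or 82.2% with library totals as the only scaling, which moved the median gene by 0.11 log2 units.

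RefSeq gives windows of 300 bases around the annotated start, most of each upstream of it, for 6 of the 10 genes (Tek, Tie1, Kdr, Flt1, Emcn and Egfl7, the last with 3 windows). Pecam1, Cdh5, Ramp2 and Esam have no entry in that table. The windows of Tek, Emcn and Flt1 are shown because these genes, with Cdh5, differed most between the 2 sham libraries. Capitals mark AGGAAG, a core bound by ETS factors, and AGATAA, a core bound by GATA factors, on either strand. The windows are Tek chr4:94739039-94739338 (plus strand), Emcn chr3:137340828-137341127 (plus strand) and Flt1 chr5:147725962-147726261 (minus strand), all in GRCm38.p6 and written along the gene's own strand.
Tek: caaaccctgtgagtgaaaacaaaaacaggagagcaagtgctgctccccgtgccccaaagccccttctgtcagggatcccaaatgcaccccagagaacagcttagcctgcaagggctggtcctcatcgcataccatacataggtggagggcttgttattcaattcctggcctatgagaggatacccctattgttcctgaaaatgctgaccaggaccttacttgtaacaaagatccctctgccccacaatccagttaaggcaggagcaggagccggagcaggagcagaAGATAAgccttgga
Emcn: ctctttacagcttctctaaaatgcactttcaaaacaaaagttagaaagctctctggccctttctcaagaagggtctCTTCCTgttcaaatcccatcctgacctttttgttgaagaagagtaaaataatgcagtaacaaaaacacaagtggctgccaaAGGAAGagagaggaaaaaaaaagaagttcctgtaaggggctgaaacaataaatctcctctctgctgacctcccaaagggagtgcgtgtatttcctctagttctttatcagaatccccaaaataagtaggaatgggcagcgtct
Flt1: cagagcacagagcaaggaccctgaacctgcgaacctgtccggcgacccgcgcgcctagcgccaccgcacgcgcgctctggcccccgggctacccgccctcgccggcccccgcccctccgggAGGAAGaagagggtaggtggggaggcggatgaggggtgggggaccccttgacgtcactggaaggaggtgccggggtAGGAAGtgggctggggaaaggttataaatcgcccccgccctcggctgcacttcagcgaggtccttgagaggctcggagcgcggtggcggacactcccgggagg

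Searched on both strands, AGGAAG was in the windows of Egfl7, Emcn, Flt1 and Tie1 (4 of 6 genes, 5 of 8 windows), against 35.4% of all 32851 windows in the table. AGATAA was found in the Tek window alone, against 11.2% of all windows, and lies at its 3′ end, past the start. GGGCGG (a GC box) was in 3 of 6 genes (3 of 8 windows) against 35.7% of windows, and TATAAA in Flt1 alone (1 of 8 windows) against 13.6%. None of the 4 motifs contains another. These matches describe the letters and are not binding sites. Egfl7 also carries a microRNA known from endothelium, whose mature form, miR-126a-3p (chr2:26591402-26591423, plus strand, seed in capitals), reads as follows.
miR-126a-3p: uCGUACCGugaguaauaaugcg
The Mir126a row held 0 counts in the 4 libraries together. It shares bases with annotated exons of Egfl7 and was read with an mRNA kit, so that 0 is no measure of the microRNA.

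Sham 1 was the lowest of the 4 libraries for all 10 genes. Among all genes tested, sham 1 was the lowest for 28.6%. Summed over the 10 genes, the level was 82.2 and 110 CPM in ovariectomy 1 and 2, against 20.4 and 61.3 CPM in sham 1 and 2, so the groups did not overlap, while the sham libraries differed from each other 3.0-fold. The ratio of group means was 2.36, and the exact two-sided permutation test over the 4 libraries gave p = 0.333, the smallest value 2 against 2 libraries can give. Without Ramp2, the sum of the other 9 genes was 52.1 and 80.9 CPM in the ovariectomy libraries, against 15.2 and 53.4 CPM in the sham libraries, and the groups overlapped, because sham 2 lay above ovariectomy 1 (ratio of group means 1.94, exact permutation p = 0.667). In bulk RNA, fewer cells of a type and less RNA per cell cannot be told apart.

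**Figure D1:**
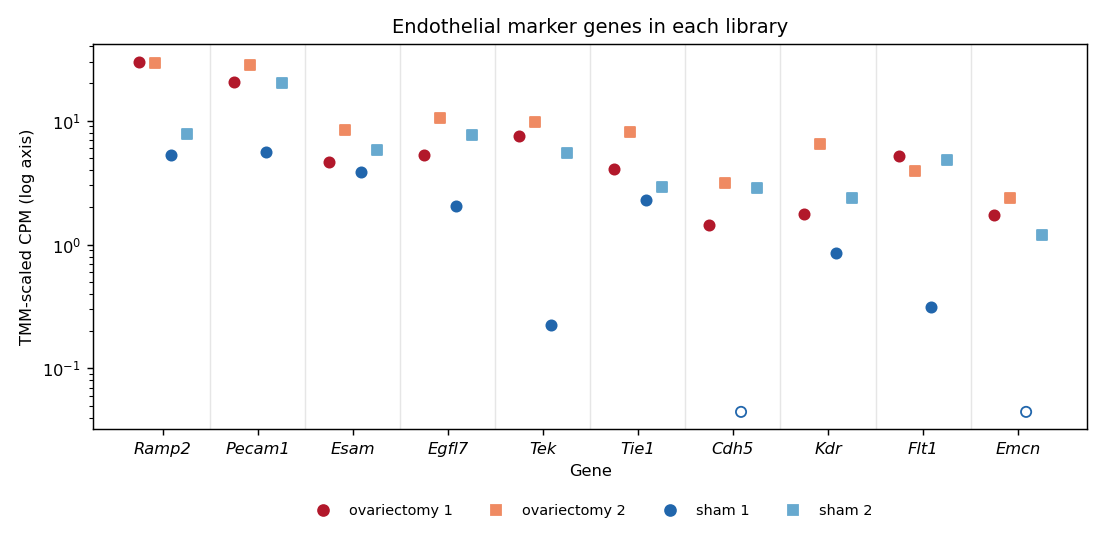
TMM-scaled CPM (log axis) of the 10 endothelial genes in each library, ordered from left to right by mean level per kilobase of exon, with circles for library 1 and squares for library 2 of a group. Hollow circles mark 0 counts, drawn at the value of 1 count. Sham 1 (dark blue) is the lowest point of every gene, while sham 2 sits among the ovariectomy points for 5 of the 10 and falls well below both of them for Ramp2.

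None of the junction and adhesion genes passed the test, and sham 2 lay close to or between the ovariectomy libraries for each of them. Pecam1 (ENSMUSG00000020717, chromosome 11, 106654217 to 106750628, minus strand, GRCm38), the adhesion molecule CD31, had 484 and 541 counts in the ovariectomy libraries (20.5 and 28.1 CPM), against 126 and 455 in sham 1 and 2 (5.62 and 20.3 CPM). Both ovariectomy libraries were above both sham libraries, but ovariectomy 1 exceeded sham 2 by a ratio of only 1.01 (95% counting interval 0.887 to 1.15). The log2 fold change over sham was 0.91 ± 0.52 SE (edgeR adjusted p = 0.425), and without sham 1 it was 0.26. Cdh5 (chromosome 8, 104101625 to 104144511, plus strand), VE-cadherin, the cadherin of endothelial junctions, had 34 and 61 counts in the ovariectomy libraries, against 0 and 64 in the sham libraries. The ovariectomy libraries, at 1.44 and 3.17 CPM, thus lay on either side of sham 2 at 2.85 CPM. Cdh5 was not detected in sham 1, where 3 counts would have been 0.134 CPM. Esam (chromosome 9, 37528078 to 37538319, plus strand), an adhesion molecule of endothelial cells and platelets, varied least, at 4.61 and 8.47 CPM after ovariectomy, against 3.84 and 5.83 CPM in sham. Neither Cdh5 (log2 fold change 0.69 ± 1.41 SE, edgeR adjusted p = 0.88) nor Esam (0.43 ± 0.42 SE, edgeR adjusted p = 0.683) passed the test, and their groups overlapped.

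The Tie receptors were higher in both ovariectomy libraries than in both sham libraries, without passing the test. Tek (ENSMUSG00000006386, chromosome 4, 94739289 to 94874976, plus strand), the angiopoietin receptor Tie2, had 178 and 188 counts after ovariectomy (7.53 and 9.77 CPM), against 5 and 124 counts in sham 1 and 2 (0.223 and 5.52 CPM). Between the 2 sham libraries the ratio was 24.8 (95% counting interval 10.3 to 77.6), far more than between the ovariectomy libraries (1.30) or between ovariectomy 2 and sham 2 (1.77, interval 1.40 to 2.24). The fold change, 1.59 ± 0.99 SE on the log2 scale (edgeR adjusted p = 0.474), became 0.65 without sham 1 and 5.25 without sham 2, where it was called (edgeR adjusted p = 3.42e-05). Tie1 (chromosome 4, 118471191 to 118490061, minus strand), the related receptor that modulates Tie2, showed another pattern. It was at 4.06 and 8.05 CPM after ovariectomy, against 2.28 and 2.94 CPM in sham, and the sham libraries differed only 1.29-fold (interval 0.883 to 1.90). Of the 10 genes, Tie1 had the second smallest p (log2 fold change 1.21 ± 0.46 SE, unadjusted p = 0.0323 and adjusted p = 0.218 with edgeR), and its fold change was similar without sham 1 (1.04) and without sham 2 (1.42), and 0.65 without ovariectomy 2.

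Of the VEGF receptors, Kdr (chromosome 5, 75932827 to 75978458, minus strand), VEGFR2, the main signalling receptor for VEGF-A, was at 1.78 and 6.44 CPM after ovariectomy, against 0.848 and 2.36 CPM in sham. Within groups, its wider gap was between the ovariectomy libraries, at 3.63-fold (95% counting interval 2.54 to 5.28), against 2.78-fold between the sham libraries (interval 1.62 to 4.98). Flt1 (chromosome 5, 147561604 to 147726011, minus strand), VEGFR1, which binds VEGF tightly and limits its action, had 123 and 76 counts after ovariectomy, against 7 and 108 in sham 1 and 2. The sham ratio of Flt1 was 15.4 (interval 7.22 to 39.2), and the ovariectomy libraries, at 5.20 and 3.95 CPM, lay on either side of sham 2 at 4.81 CPM. Neither receptor passed the test (log2 fold change 1.35 ± 0.76 SE for Kdr and 0.84 ± 0.95 SE for Flt1, edgeR adjusted p = 0.422 and 0.74), and without sham 1 the value for Flt1 was -0.07. Kdr lay at 0.79 without sham 1, 2.27 without sham 2, 2.02 without ovariectomy 1 and 0.16 without ovariectomy 2. Between the ovariectomy libraries the ratio of Flt1 was 0.759, with a counting interval (0.563 to 1.02) that includes no difference.

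Emcn (chromosome 3, 137341067 to 137432185, plus strand), the sialomucin endomucin of veins and capillaries, had a low level per length, at 0.246 CPM per kilobase of exon over the 4 libraries. It had 41 and 46 counts after ovariectomy, against 0 and 27 in sham 1 and 2. Against a floor of 3 counts per library, sham 2 was at least 8.98-fold above sham 1. Egfl7 (chromosome 2, 26580014 to 26593120, plus strand), a protein secreted by endothelial cells into the vessel matrix, was at 5.33 and 10.6 CPM after ovariectomy, against 2.05 and 7.61 CPM in sham. The groups overlapped for Egfl7 and not for Emcn. Neither passed (log2 fold change 1.77 ± 1.36 SE for Emcn and 0.72 ± 0.61 SE for Egfl7, edgeR adjusted p = 0.581 and 0.634). Egfl7 lay at 0.061 without sham 1, 1.96 without sham 2 (edgeR adjusted p = 0.0202) and 0.155 without ovariectomy 2. Emcn lay at 0.78 without sham 1 and at least 15.5-fold higher without sham 2, where 3 counts stood in for the 0 of sham 1. Egfl7 shares 11.2% of its exon length with other annotated genes, among them Agpat2 on the opposite strand, and the strand setting of the counting is not given.

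Ramp2 was the single member called higher. Ramp2 (ENSMUSG00000001240, chromosome 11, 101246028 to 101259546, plus strand) encodes a receptor activity-modifying protein, which pairs with the calcitonin receptor-like receptor to form an adrenomedullin receptor. It had 711 and 564 counts after ovariectomy (30.1 and 29.3 CPM), against 118 and 177 in sham 1 and 2 (5.26 and 7.88 CPM). The ovariectomy libraries agreed within counting error (ratio 0.975, 95% interval 0.871 to 1.09) and both lay well above both sham libraries, which differed 1.5-fold. The mean was 29.7 ± 0.543 CPM after ovariectomy and 6.57 ± 1.85 CPM in sham (SD, n = 2 each), which is 4.51-fold higher (2.17 ± 0.25 SE in log2, adjusted p = 0.00591 by edgeR). It stayed called without sham 1 (1.92, edgeR adjusted p = 8.75e-05) and without sham 2 (2.51, edgeR adjusted p = 2.58e-05). Without ovariectomy 1 or 2 the size held (2.17 and 2.21) and the call was lost (edgeR adjusted p = 0.245 and 0.202), in fits that called 0 of all genes tested (1788 and 1618 at an unadjusted p under 0.05), so the calls of other genes given here were lost there too. Ramp2 shares 33.4% of its exon length with Vps25, whose own row held 26 counts over the 4 libraries. Both genes lie on the plus strand, so reads in the shared bases cannot be told apart. That row is therefore no measure of Vps25, and its part in the Ramp2 counts was not tested.

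Calcrl, the receptor that Ramp2 accompanies, moved with it. It had 1957 and 2135 counts after ovariectomy (82.7 and 111 CPM), against 95 and 197 in sham 1 and 2 (4.24 and 8.77 CPM), 14.9-fold higher (3.89 ± 0.34 SE in log2, adjusted p = 0.00302 by edgeR). It was called without sham 1 (3.47) and without sham 2 (4.52), and lost its call without ovariectomy 1 or 2 (edgeR adjusted p = 0.175 and 0.187). The other partners of this receptor did not pass. Ramp1, which makes it a receptor for CGRP, was at 29.5 and 26.6 CPM after ovariectomy, against 21.2 and 34.2 CPM in sham (log2 fold change 0.02 ± 0.25 SE, edgeR adjusted p = 0.984). Ramp3 had between 9 and 16 counts in every library. The ligand gene Adm (adrenomedullin) was at 14.0 and 16.8 CPM after ovariectomy, against 9.59 and 7.93 CPM in sham (log2 fold change 0.81 ± 0.25 SE, edgeR adjusted p = 0.134). Ramp1, Ramp3 and Adm were chosen after their values were seen.

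**Figure D2:**
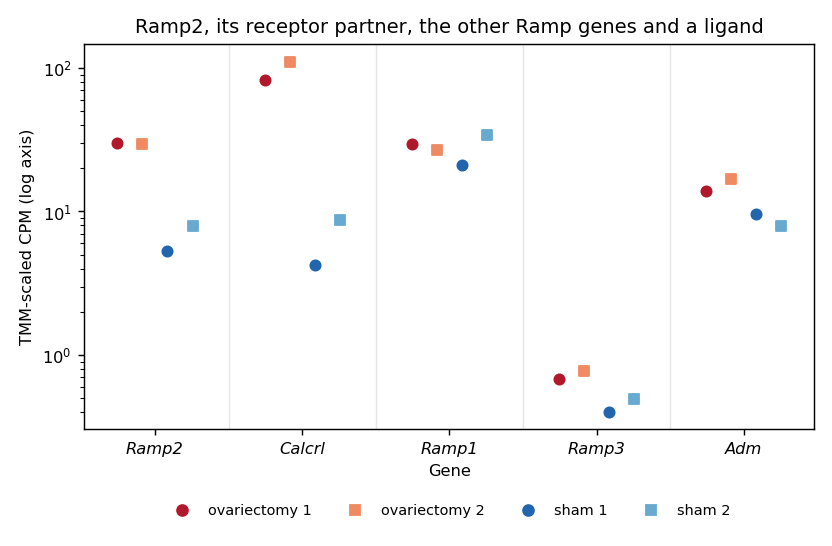
TMM-scaled CPM (log axis) of Ramp2, Calcrl, Ramp1, Ramp3 and Adm in each library, with circles for library 1 and squares for library 2 of a group. Ramp2 and Calcrl separate the ovariectomy from the sham libraries by the widest gaps, with the nearest libraries at 29.3 CPM after ovariectomy against 7.88 CPM in sham for Ramp2, and at 82.7 against 8.77 CPM for Calcrl, while the Ramp1 groups overlap.

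Over the list, 1 of the 10 genes was called higher and 0 lower by edgeR, where 2.98% of all genes tested were called higher and 1.20% lower. The other 9 had fold changes above 0 and adjusted p between 0.218 and 0.88, and 2 genes (Ramp2 and Tie1) had an unadjusted p under 0.05, where 10.6% of all genes tested were higher at that threshold. The median log2 fold change of the 10 was 1.06, beside -0.02 for all genes tested. Both ovariectomy libraries were above both sham libraries for 5 of the 10 (Pecam1, Tek, Tie1, Emcn and Ramp2), where 25.5% of all genes tested were.

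The call of 6 genes (Pecam1, Cdh5, Tek, Flt1, Emcn and Egfl7) depended on which sham library served as the comparison, while Tie1, Kdr and Esam were called in neither case and Ramp2 in both. With sham 2 left out, 7 of the 10 were called higher by edgeR (Pecam1, Cdh5, Tek, Flt1, Emcn, Ramp2 and Egfl7), where 6.64% of all genes tested in that fit were. With sham 1 left out, Ramp2 alone was called, where 4.62% of all genes were. In both fits the lone sham library is assumed to vary like the ovariectomy pair. The median log2 fold change was 0.45 without sham 1 and 2.39 without sham 2. Against sham 2, the mean of the ovariectomy libraries was 0.808-fold for Cdh5, 0.951-fold for Flt1, 1.05-fold for Egfl7, 1.12-fold for Esam and 1.20-fold for Pecam1. It was between 1.57-fold and 2.06-fold for Tek, Emcn, Kdr and Tie1, and 3.77-fold for Ramp2.

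**Figure D3:**
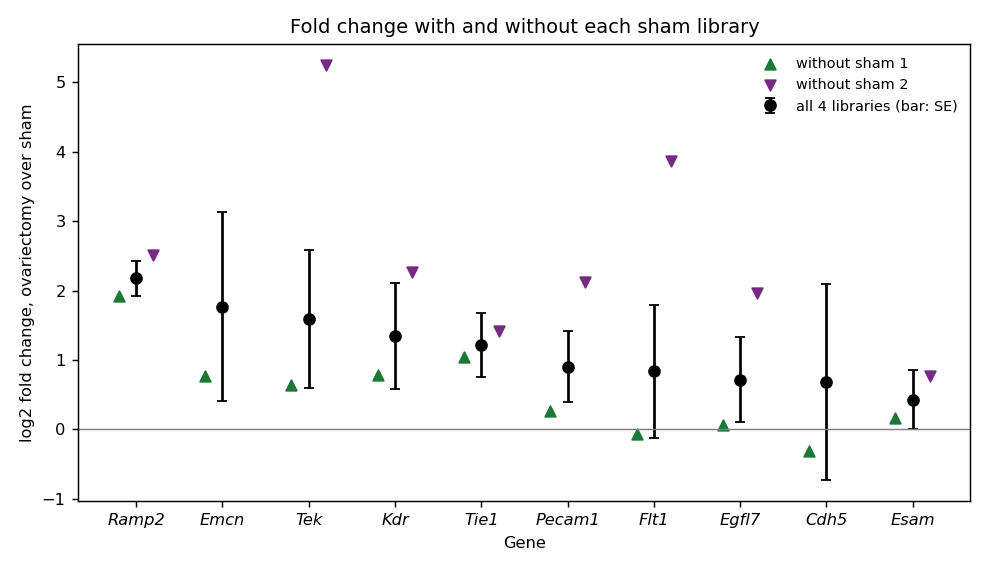
log2 fold change of each gene, ovariectomy over sham, with all 4 libraries (black, bar: SE), without sham 1 (green, upward triangle) and without sham 2 (purple, downward triangle). The points without sham 2 of Cdh5 and Emcn are not drawn because sham 1 held 0 counts of them. Ramp2 and Tie1 keep similar values under all settings shown, while Tek lies at 0.65 without sham 1 and 5.25 without sham 2.

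The 10 genes shared the low value of sham 1 and differed widely in its size. Sham 2 exceeded sham 1 by at least 2-fold for 7 genes, where 10.4% of all genes tested did (values under 3 counts set to 3), and 0 genes were at least 2-fold lower (10.1% of all genes tested). The size of that gap ran from 1.29-fold for Tie1, 1.5-fold for Ramp2 and 1.52-fold for Esam, through 2.78-fold for Kdr, 3.61-fold for Pecam1 and 3.71-fold for Egfl7, to 15.4-fold for Flt1, 24.8-fold for Tek and at least 21.3-fold for Cdh5. Ovariectomy 2 over ovariectomy 1 ran from 0.759 for Flt1 to 3.63 for Kdr, and 2 genes (Cdh5 and Kdr) passed 2-fold, where 8.82% of all genes tested did, while 0 were at least 2-fold lower (5.76% of all genes tested). Tek and Flt1, which split the sham libraries widely, differed 1.30-fold and 0.759-fold between the ovariectomy libraries, while Cdh5 was apart in both pairs.

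Proportions within the set moved between libraries as well. Tek made up 9.16% and 8.86% of the summed CPM in ovariectomy 1 and 2, against 1.09% and 9.01% in sham 1 and 2. Esam made up 5.61% and 7.68% after ovariectomy, against 18.8% and 9.52% in sham. Ramp2 made up 36.6% and 26.6% after ovariectomy, against 25.8% and 12.9% in sham. Pecam1 held the steadiest share, 24.9% and 25.5% after ovariectomy and 27.5% and 33.1% in sham. The shares of Tek, Esam and Ramp2 were thus not fixed across the libraries. Whether the RNA came from endothelial cells, from other cells of the sort or from both was not tested.

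**Figure D4:**
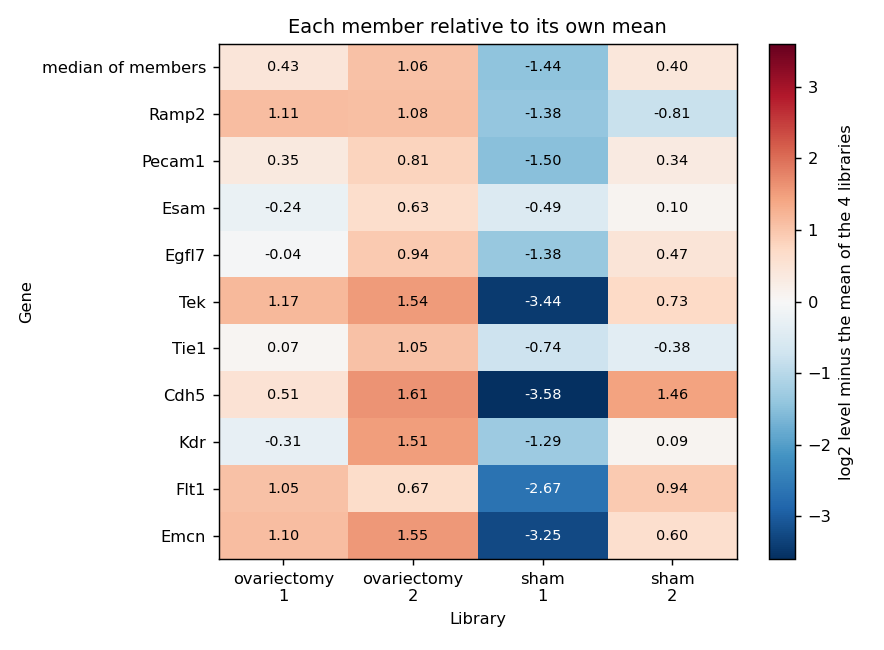
log2 level of each gene in each library minus the gene's mean over the 4 libraries (2 counts added to each library), with the median of the 10 genes in the top row. The sham 1 column is the lowest of every row, from -0.49 for Esam to -3.58 for Cdh5, while sham 2 is below 0 for Ramp2 and Tie1 alone.

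Measured as counts per kilobase of exon, so that genes can be set beside each other, Ramp2 had the highest level (5.49 CPM per kilobase over the 4 libraries), then Pecam1 (2.99), Esam (1.98), Egfl7 (1.79), Tek (1.22), Tie1 (0.881), Cdh5 (0.443), Kdr (0.316), Flt1 (0.264) and Emcn (0.246). In each ovariectomy library Ramp2 was first and Pecam1 next, while in sham 2 Pecam1 led with 3.25 CPM per kilobase and Ramp2 followed with 2.39. Sham 1 gave Ramp2 (1.59) and then Esam (1.34). Exon length was taken whole, with the 33.4% of Ramp2 and 11.2% of Egfl7 that other genes share. Close ranks, such as Ramp2 and Pecam1 in sham 2, may depend on this. Esam and Egfl7 changed places between libraries and do not differ beyond their spread, and neither do Kdr, Flt1 and Emcn.

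Further endothelial genes followed in part. Of 25 other markers, 24 were tested, 2 were called higher and 0 lower by edgeR, with a median log2 fold change of 0.39. Sham 1 was the lowest library for 16 of the 25, and 16 of the 24 exceeded it at least 2-fold in sham 2. Over all genes tested these shares were 28.6% and 10.4%, and 2.98% were called higher. The 2 called higher were Calcrl and Cd34. Cd34 is a sialomucin of endothelium that is also found on blood and mesenchymal progenitors. It was at 77.2 and 97.9 CPM after ovariectomy, against 17.5 and 29.9 CPM in sham (3.69-fold, edgeR adjusted p = 0.0105). Values of the fenestral diaphragm gene Plvap had the shape of Tek, at 15.5 and 16.2 CPM after ovariectomy, against 1.70 and 8.46 CPM in sham (edgeR adjusted p = 0.213). Ecscr, an endothelial surface protein, had 59 and 26 counts after ovariectomy, against 0 and 57 in sham, as Cdh5 did. Erg and Fli1, ETS transcription factors of endothelium, and Adgrf5 ran the other way, with log2 fold changes of -0.73, -0.74 and -1.05 (edgeR adjusted p = 0.408, 0.0695 and 0.0591). The groups overlapped for Erg, at 6.765 and 5.558 CPM after ovariectomy, against 6.467 and 14.02 CPM in sham 1 and 2. Fli1 and Adgrf5 did not overlap. Plvap, Ecscr, Erg, Fli1 and Adgrf5 were chosen after their values were seen. Eng, endoglin or CD105, which is both an endothelial marker and a sort antigen, was at 75.2 and 83.1 CPM after ovariectomy, against 21.6 and 52.1 CPM in sham (1.10 ± 0.35 SE in log2, edgeR adjusted p = 0.15). Eng was called without sham 2 (edgeR adjusted p = 1.69e-05), at a mean of 5 CPM or more (0.0481), with no filter, with limma-voom (0.0471) and with the replicate block (0.0121), and lay at 0.60 without sham 1 (adjusted p = 0.0535).

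Genes of vessel subtypes gave a mixed result. Of 7 arterial genes 0 were called by edgeR (0 at an unadjusted p under 0.05), and their summed level was 24.1 and 27.9 CPM after ovariectomy, against 28.5 and 28.4 CPM in sham. The arterial genes with the smallest p were Hey1, a Notch target (log2 fold change -0.48, edgeR adjusted p = 0.41), and Gja5, connexin 40 (0.90, edgeR adjusted p = 0.609). Of 8 sinusoidal and lymphatic genes, 7 were tested, and 2 were called higher, Vcam1 and Pdpn, where 2.98% of all genes tested were. Vcam1, an adhesion molecule shared with marrow stroma, was 3.53-fold higher (edgeR adjusted p = 0.0047). Pdpn, podoplanin, which stromal cells and osteocytes also make, was 2.69-fold higher (edgeR adjusted p = 0.0122). Both ovariectomy libraries lay below both sham libraries for Ephb4, a receptor of venous endothelium, at 20.1 and 26.5 CPM, against 31.4 and 29.4 CPM in sham (edgeR adjusted p = 0.37). The same held for Prox1, a transcription factor of lymphatic endothelium, at 3.04 and 2.34 CPM after ovariectomy, against 3.57 and 7.66 CPM in sham (edgeR adjusted p = 0.306). Stab2, a scavenger receptor of sinusoids, had 35 and 31 counts after ovariectomy, against 24 and 62 in sham. Ephb4, Prox1 and Stab2 were chosen after their values were seen.

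Ligands and coreceptors of the member genes formed a list of 15, of which 1 (Calcrl) was called higher and 0 lower by edgeR, with a median log2 fold change of 0.02. Of all genes tested, 2.98% were called higher and 1.20% lower. Vegfa, the ligand of both VEGF receptors, was at 3.34 and 2.23 CPM after ovariectomy, against 3.52 and 3.34 CPM in sham (edgeR adjusted p = 0.82). Angpt1, the activating ligand of Tie2, was at 4.10 and 3.90 CPM after ovariectomy, against 0.178 and 2.32 CPM in sham 1 and 2 (edgeR adjusted p = 0.417). Angpt4, another ligand of Tie2, ran the other way, at 8.20 and 13.6 CPM after ovariectomy, against 21.9 and 19.9 CPM in sham (edgeR adjusted p = 0.123). Vegfd had 318 and 279 counts after ovariectomy, against 1 and 105 in sham (edgeR adjusted p = 0.263). Angpt1 and Vegfd had their lowest value in sham 1, as the endothelial genes did. Vegfa, Angpt1, Angpt4 and Vegfd were chosen after their values were seen.

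Markers of other cells the sort could hold moved along different lines between libraries. Pericyte and smooth muscle genes, which mark the cells that wrap vessels, summed to 692 and 741 CPM after ovariectomy, against 387 and 425 CPM in sham, and 3 of 13 were called higher by edgeR. Among them Rgs5 was at 295 and 361 CPM after ovariectomy, against 5.67 and 46.4 CPM in sham (12.6-fold, edgeR adjusted p = 0.0478), and Des rose 4.50-fold and Acta2 2.83-fold. Sham 1 was the lowest library for 10 of these 13 genes, and 5 of 13 were at least 2-fold higher in sham 2 than in sham 1. Over all genes tested these shares were 28.6% and 10.4%. Rgs5 was the largest part of both ovariectomy sums of this list, and Cspg4 (NG2) of both sham sums. Cspg4 was at 214 and 222 CPM after ovariectomy, against 284 and 266 CPM in sham, and was chosen after its values were seen. Stromal niche genes had 4 of 8 called higher, with sums of 629 and 774 CPM after ovariectomy, against 208 and 315 CPM in sham. Of all genes tested, 2.98% were called higher.

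Most lists of blood cell genes were higher in sum in both ovariectomy libraries than in both sham libraries. Erythroid genes summed to 204 and 282 CPM after ovariectomy, against 79.0 and 61.4 CPM in sham. Of 11 tested erythroid genes, 5 were called higher by edgeR, where 2.98% of all genes tested were. Lymphoid genes summed to 77.0 and 105 CPM after ovariectomy, against 17.8 and 24 CPM in sham (2 of 6 called higher). Ebf1 made up most of each lymphoid sum, at 66.7 and 87.9 CPM after ovariectomy, against 14.4 and 20.6 CPM in sham. Neutrophil genes summed to 203 and 309 CPM, against 152 and 96.3 CPM in sham (2 of 11 called higher). Among them Mpo was at 58.4 and 110 CPM after ovariectomy, against 3.39 and 0.49 CPM in sham. With Mpo left out, the neutrophil sums of the groups overlapped. Both ovariectomy libraries lay above both sham libraries for 6 of the 11 neutrophil genes, where 25.5% of all genes tested did. Monocyte and macrophage genes summed to 114 and 150 CPM, against 67.5 and 79.0 CPM in sham (0 of 10 called, with 6 at an unadjusted p under 0.05). Blood stem and progenitor genes, the cells that share Tek, Emcn and Esam with endothelium, summed to 25.3 and 33.9 CPM after ovariectomy, against 23.5 and 19.1 CPM in sham. Of that list 1 of 10 was called higher, Kit, the stem cell factor receptor, at 5.62 and 7.12 CPM after ovariectomy, against 0.848 and 0.178 CPM in sham (edgeR adjusted p = 0.0347, and 0.0533 with limma-voom). With Kit left out, the sums of this list overlapped between the groups.

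The megakaryocyte and platelet list differed 2.62-fold between the sham libraries, with sham 2 the higher, as the endothelial genes did. It summed to 13.4 and 16.8 CPM after ovariectomy, against 9.46 and 24.8 CPM in sham 1 and 2, and 0 of 6 tested genes were called (2 at an unadjusted p under 0.05, both lower). Ppbp, a platelet chemokine, had 4 and 7 counts after ovariectomy, against 24 and 81 in sham. Every gene of these lists had counts in at least 1 library. Lists of cartilage and bone genes ran the other way, with 10 of 11 chondrocyte and 5 of 10 osteoblast genes called lower by edgeR. Of all genes tested, 1.20% were called lower. The osteoblast list had 1 gene called higher, Dmp1 (1.54-fold, edgeR adjusted p = 0.0489), which was chosen after its values were seen. The part of these lists in the values of the endothelial genes was not tested.

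**Figure D5:**
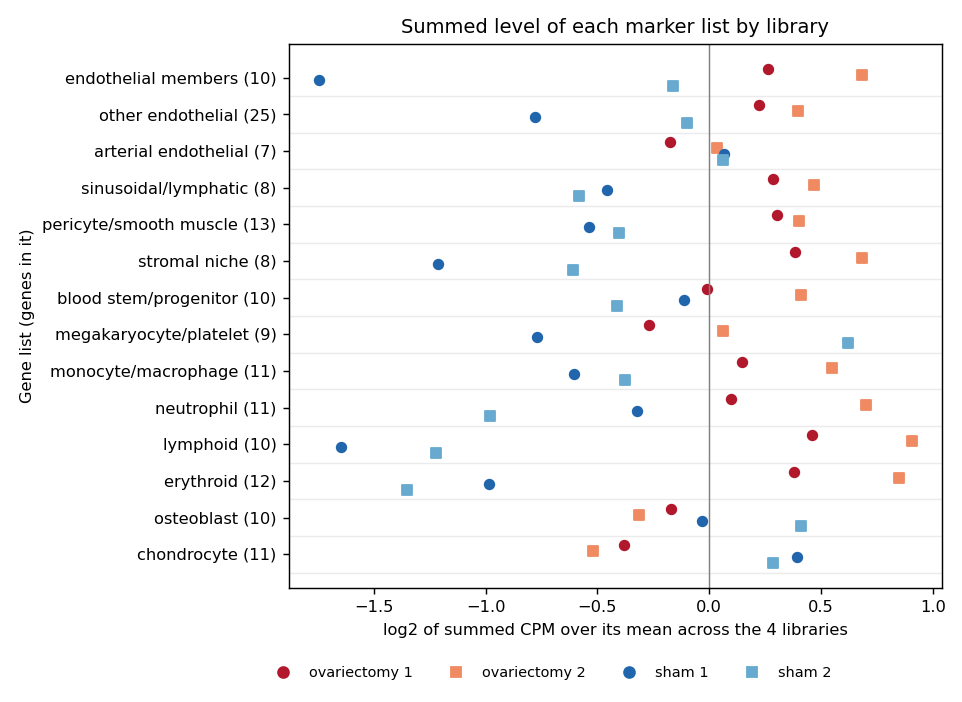
Summed CPM of each marker list in each library, as log2 of its ratio to the mean of the 4 libraries, with circles for library 1 and squares for library 2 of a group. The endothelial members are spread widest between sham 1 (20.4 CPM) and sham 2 (61.3 CPM), with both below both ovariectomy libraries. Several other lists, among them the erythroid, lymphoid and pericyte lists, also set both sham libraries apart from both ovariectomy libraries.

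Outside the set, the genes with the most similar pattern were found by the root-mean-square difference from the median log2 profile of the 10 genes over the 4 libraries, among 12400 protein-coding genes whose level averaged 1 CPM or more. The 8 nearest were Brip1 (0.125), Oasl2 (0.134), Olfr905 (0.151), Zfp970 (0.156), Icam2 (0.16), Aldh1l1 (0.164), C3 (0.189) and Cpxm2 (0.191), where the median gene was at 0.965. Of the 10 genes themselves, Pecam1 was at 0.14 and Egfl7 at 0.246 from their median profile, and Cdh5, the farthest, at 1.23. Icam2, an adhesion molecule of endothelium and leukocytes, was at 2.66 and 3.58 CPM after ovariectomy, against 0.714 and 2.45 CPM in sham. The complement gene C3 was at 24.5 and 33.3 CPM after ovariectomy, against 5.62 and 17.9 CPM in sham. None of the 8 was called by edgeR (adjusted p between 0.205 and 0.631). With 4 libraries many unrelated genes share a profile, and the likeness is a description.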

How the data were processed

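The authors deposited raw counts per Ensembl gene for the 4 libraries. Trim Galore 0.6.6, featureCounts 2.0.1 and the build GRCm38 (mm10) are named, per the submitters' processing notes. The aligner, annotation release and strand setting were not given in the sources used here. GENCODE M21 (GRCm38) gave a symbol to 55227 of 55487 IDs, and positions and exon lengths.

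Genes were filtered with filterByExpr at default settings (17120 kept), scaled by TMM, and tested in R 4.3.3 with the quasi-likelihood test (glmQLFTest, two-sided) of edgeR 4.0.16, with group as the term and 2 residual degrees of freedom, Benjamini-Hochberg adjustment over all genes tested and calls at an adjusted p under 0.05. Fold changes are ovariectomy over sham, and their SE is the size over the square root of F. Ratios of single libraries have exact binomial 95% intervals, and a library at 0 was set to a floor of 3 counts. Intervals and floors cover counting error only. Alternatives used other scalings, filters, the tests of DESeq2 1.42.0 and limma 3.58.1, left-out libraries and a replicate block.

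Members and gene lists were chosen with earlier results of these data known, so counts over a list are descriptions. The only test over a list was the permutation test on the summed level of the members, with and without Ramp2. With 2 against 2 libraries that test could not reach a p under 0.05, so it decides nothing. The rule for named genes took the 10 members, the sort antigens, in each list at most 4 called genes, ranked by p (2 genes in a list with no call), and the 8 genes most like the members. Of the other cell lists only some of these are named, and genes outside the rule are marked as chosen after their values were seen.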

Additional observations from a re-analysis of the deposited data

How the results depend on the processing

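Over 12 alternatives, the 10 endothelial genes gave 115 values besides the main ones, of which 102 kept their direction and their side of the threshold, 8 newly passed it, 2 no longer did and 3 turned sign. The sign changes, in log2, were Cdh5 (-0.31) and Flt1 (-0.066) without sham 1 and Esam (-0.054) without ovariectomy 2. Over the left-out libraries, Flt1 lay between -0.066 and 3.86, Esam between -0.054 and 0.825, and Cdh5 between -0.31 and 8.65, the last a fitted value against 0 counts that depends on the prior count. Outside the set, the log2 fold change of Itgav turned to -0.00954 with upper-quartile scaling. With no filter, 3 endothelial genes were called higher (Pecam1, Tek and Ramp2). Leaving out a library gave between 0 and 7 called genes, and a median log2 fold change between 0.45 and 2.39, the second also with Cdh5 and Emcn at their bounds of at least 17.3-fold and 15.5-fold. Their count stayed at 1 under the other scalings, at a mean of 5 CPM (5 of the 10 left), and with the DESeq2 test and limma-voom. With limma-voom the log2 fold changes of genes low in sham 1 were larger, at 3.04 for Cdh5, 2.86 for Tek, 3.61 for Emcn and 1.86 for Flt1, and with the replicate block they were 2.05, 2.43, 2.86 and 1.60 for these genes in that order. The ratio of summed levels lay between 2.30 and 2.56 over the scalings.

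Among all genes, calls were 1112 higher and 544 lower with no filter, and 923 and 483 with the DESeq2 test. At a mean of 5 CPM 406 were lower, and with limma-voom 313. Leaving out a library gave between 0 and 1277 higher and between 0 and 558 lower. Libraries of the same number did not deviate together (r = 0.00241 across genes), so the numbers are not shown to pair them. The replicate block called 745 higher and 329 lower, among them 1 endothelial gene. Genes with few counts, such as Emcn and Cdh5, are limited by depth.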
